A study of Danio rerio with 12 samples.

Results

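The genes of the RNA polymerase III system described here are maf1a, maf1b, brf1a, brf1b, bdp1, polr3a, polr3b, polr3e, polr3f and polr3g, 10 of the 31462 gene identifiers in the tables. They were picked by symbol, and maf1b also by its identifier ENSDARG00000036489. They were chosen by name with their differences between genotypes and stages in these libraries already known. Their differences are therefore given as a description with no p-value. How many of them passed a threshold is given only as a count beside the share of all genes. The lists of other pathway genes, for which p-values adjusted over all genes are given, were also drawn up with earlier results known.

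RNA polymerase III (Pol III) transcribes short non-coding RNAs of every cell, among them transfer RNAs, 5S ribosomal RNA, the U6 spliceosomal RNA, the 7SK RNA and the RNA of the signal recognition particle. The enzyme is brought to its promoters by the factor TFIIIB, which is built from TBP, BDP1 and either BRF1 or BRF2, and TFIIIB is placed on most of these promoters by the DNA-binding factor TFIIIC. MAF1, known best from yeast and mammals, represses the system by binding the polymerase and BRF1. It is held inactive by phosphorylation downstream of TOR signalling when nutrients are plentiful.

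Zebrafish of the AB strain were used, and the poly-A RNA of 30 to 50 embryos went into each library. The 4 groups were maternal-zygotic smchd1 null (MZ) and wildtype (wt) embryos of the sphere stage, and MZ and wt embryos with 4 to 8 cells, with 3 libraries each. MZ embryos carried the lof1 allele of smchd1 and came from mothers and fathers without functional smchd1 (an out-of-frame CRISPR/Cas9 allele in the region of the ATPase domain), so that both the egg's supply and the embryo's own copies were missing. Embryos of 4 to 8 cells hold RNA deposited by the mother, whereas sphere embryos have begun to transcribe their own genome.

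Depth ran between 7829742 expected counts, in MZ sphere replicate 1, and 23681822. The smchd1 transcript averaged 0.720 TPM (a share of all transcripts, corrected for gene length) in MZ sphere and 40.4 TPM in wt sphere embryos, and 1.65 TPM in MZ against 61.1 TPM in wt 4- to 8-cell embryos. A list of 23 zygotic blastula genes summed to 2197 to 2878 TPM in MZ sphere and 2427 to 3044 TPM in wt sphere libraries, against 32.2 to 39.1 TPM in MZ and 23.4 to 27.9 TPM in wt 4- to 8-cell libraries. At the sphere stage 4 of its 22 fitted genes had a positive log2 fold change of MZ over wt (median -0.285), as did 9 of 14 maternal egg genes (median 0.13), and the part of these stage markers in the differences below was not tested. Markers of ovarian follicle, blood and liver summed to at most 7.40 TPM in any library, and 9 testis markers summed to 82.6 to 154 TPM. The removed ribosomal RNA gene held 0.309% to 3.98% of the counts in MZ sphere libraries and 0.00632% to 0.0221% in wt sphere libraries, and the part of this gap in the differences below was not tested. Without MZ sphere replicate 1, the shallowest library, the log2 fold change at the sphere stage was -1.31 for maf1b and 0.93 for bdp1. Bulk libraries cannot tell fewer cells with a transcript from less of it per cell, and poly-A selection cannot tell fewer copies from shorter tails.

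Of the repressor genes, maf1b was separated by genotype at the sphere stage and its paralogue maf1a was not. maf1b stood at 211, 222 and 202 TMM-scaled CPM (a gene's share of the library's counts) in MZ sphere libraries, against 501, 544 and 513 CPM in wt sphere libraries. Before zygotic transcription it stood at 277, 275 and 357 CPM in MZ embryos and at 297, 283 and 331 CPM in wt embryos. Every MZ sphere library thus lay below all 9 others, every wt sphere library above all 9 others, and the genotypes overlapped at the earlier stage. The log2 fold change of MZ over wt was -1.31 (SE 0.09) at the sphere stage and 0.02 (SE 0.13) in 4- to 8-cell embryos, and the interaction of genotype and stage in the fit to all 12 libraries was -1.32 (SE 0.16).

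Between stages, the maf1b values had opposite signs in the genotypes on both the CPM and the TPM scale. The log2 fold change of sphere over 4- to 8-cell embryos was -0.48 (SE 0.11) in MZ and 0.84 (SE 0.11) in wt embryos. On log2(TPM + 1) it was -0.70 in MZ and 0.24 in wt embryos, and the wt value did not pass there. maf1b was the most abundant of the 10 genes per length in all 4 groups, at 146 ± 8.54 TPM in MZ sphere, 282 ± 11.7 TPM in wt sphere, 240.5 ± 34.3 TPM in MZ 4- to 8-cell and 239.5 ± 16.3 TPM in wt 4- to 8-cell embryos (SD, n = 3 each). On the TPM scale the MZ over wt ratio at the sphere stage was 0.519, against 0.408 for CPM. The length that the authors' counting program RSEM assigned to maf1b, a mean over its annotated transcripts weighted by their abundance, was 1952 ± 66.4 bases in MZ sphere and 2227 ± 87.1 bases in wt sphere libraries (SD, n = 3 each), with no overlap, and 2196 ± 95.4 bases in MZ and 2232 ± 113 bases in wt 4- to 8-cell libraries. The shorter assigned length enters the TPM ratio. Whether the transcripts of maf1b were used differently was not tested.

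maf1a, the other zebrafish copy, stood at 71.9, 77.1 and 85.2 CPM in MZ sphere and 86.4, 75.3 and 86.5 CPM in wt sphere libraries. With 4 to 8 cells the values were 65.7, 55.1 and 68.4 CPM in MZ and 66.0, 66.7 and 70.6 CPM in wt embryos. The genotypes overlapped at both stages, with log2 fold changes of -0.09 (SE 0.12) in sphere and -0.08 (SE 0.10) in 4- to 8-cell embryos. The copies together reached 177 ± 12.6 TPM in MZ sphere, 311 ± 15.2 TPM in wt sphere, 272 ± 37.5 TPM in MZ 4- to 8-cell and 274 ± 17.9 TPM in wt 4- to 8-cell embryos (SD, n = 3 each). maf1b made up 82.9 ± 1.15% of that sum in MZ sphere and 90.7 ± 0.795% in wt sphere embryos, against 88.3 ± 0.745% in MZ and 87.4 ± 0.763% in wt 4- to 8-cell embryos. The summed maf1 level of MZ sphere libraries, 165 to 190.02 TPM, did not reach that of any other group, whose lowest library held 249 TPM.

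**Figure D1:**
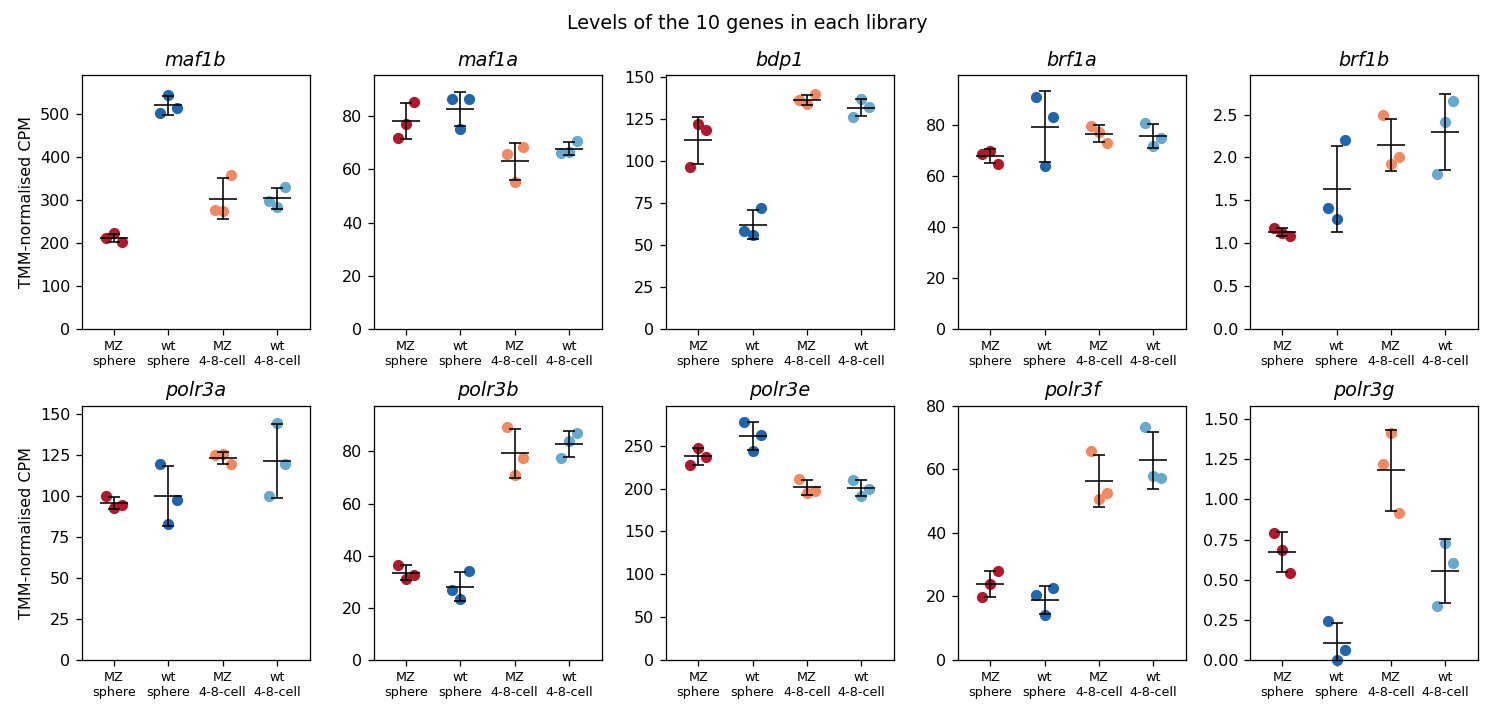
Levels of the 10 genes in TMM-normalised CPM, 1 panel per gene with an axis that starts at 0. Points are libraries in the order MZ sphere, wt sphere, MZ 4-8-cell and wt 4-8-cell, and bars are the mean ± SD of 3 libraries. maf1b lay at 202 to 222 CPM in MZ sphere and 501 to 544 CPM in wt sphere libraries, and bdp1 at 96.3 to 122 CPM in MZ sphere and 56.0 to 72.3 CPM in wt sphere libraries.

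Within TFIIIB, bdp1 differed in the opposite direction to maf1b. It encodes the subunit that locks TFIIIB onto DNA. bdp1 stood at 96.3, 122 and 118 CPM in MZ sphere libraries, against 58.2, 56.0 and 72.3 CPM in wt sphere libraries, with no overlap. The earlier stage gave 136, 134 and 139.6 CPM in MZ and 126, 137 and 132 CPM in wt embryos, which overlapped. The log2 fold change of MZ over wt was 0.84 (SE 0.14) in sphere and 0.07 (SE 0.06) in 4- to 8-cell embryos, and the interaction in the fit to all 12 libraries was 0.78 (SE 0.15), with a call at an adjusted p of 0.05 in 4 of the 12 fits that left out 1 library. By stage, sphere over 4- to 8-cell, the log2 fold change was -0.24 (SE 0.11) in MZ and -1.02 (SE 0.11) in wt embryos.

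The BRF1 genes encode the TFIIIB subunit that MAF1 binds. brf1a stood at 68.6, 70.0 and 64.7 CPM in MZ sphere and 91.2, 63.9 and 83.2 CPM in wt sphere libraries. With 4 to 8 cells the values were 79.8, 77.2 and 73.1 CPM in MZ and 81.1, 71.9 and 74.9 CPM in wt embryos. The genotypes overlapped at both stages, and its log2 fold changes were -0.24 (SE 0.15) in sphere and 0.03 (SE 0.07) in 4- to 8-cell embryos. brf1b was read from few counts, with 41 counts over the 3 MZ sphere, 79 over the 3 wt sphere, 118 over the 3 MZ 4- to 8-cell and 146 over the 3 wt 4- to 8-cell libraries. It lay at 1.09 to 1.18 CPM in MZ sphere and 1.29 to 2.21 CPM in wt sphere libraries, which did not overlap, with a log2 fold change of -0.54 (SE 0.38). Per length, brf1b supplied 1.95 ± 0.0654% of the BRF1 transcripts in MZ sphere, 2.40 ± 0.644% in wt sphere, 3.25 ± 0.364% in MZ 4- to 8-cell and 3.53 ± 0.826% in wt 4- to 8-cell embryos (SD, n = 3 each).

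The largest subunits, polr3a and polr3b, form the catalytic centre of the enzyme. polr3a stood at 100.0, 92.7 and 94.4 CPM in MZ sphere and 119, 83.0 and 97.9 CPM in wt sphere libraries. With 4 to 8 cells the values were 125, 126 and 119 CPM in MZ and 99.9, 145 and 119.9 CPM in wt embryos. The genotypes overlapped at both stages, and the wt libraries spread more widely than the MZ libraries. polr3b stood at 36.5, 30.9 and 32.6 CPM in MZ sphere and 26.7, 23.4 and 34.1 CPM in wt sphere libraries. With 4 to 8 cells the values were 89.6, 71.1 and 77.3 CPM in MZ and 77.4, 83.8 and 87.2 CPM in wt embryos. Its genotypes overlapped, whereas every sphere library lay below every 4- to 8-cell library. The log2 fold change by stage was -1.21 (SE 0.15) in MZ and -1.50 (SE 0.15) in wt embryos for polr3b, against -0.33 (SE 0.14) in MZ and -0.22 (SE 0.14) in wt embryos for polr3a. Per length, polr3a reached 26.9 ± 1.63 TPM and polr3b 11.5 ± 1.09 TPM in MZ sphere embryos, and 25.5 ± 4.87 TPM and 8.84 ± 2.33 TPM in wt sphere embryos. At the earlier stage the levels were 45.2 ± 1.95 TPM for polr3a and 35.5 ± 2.65 TPM for polr3b in MZ, and 45.2 ± 9.89 TPM and 37.6 ± 3.86 TPM in wt.

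polr3e and polr3f encode peripheral subunits that take part in initiation. polr3e stood at 228, 248 and 237 CPM in MZ sphere and 278, 244 and 263 CPM in wt sphere libraries. With 4 to 8 cells the values were 211, 195 and 198 CPM in MZ and 209, 191 and 200.1 CPM in wt embryos. Sphere libraries lay above 4- to 8-cell libraries in both genotypes on the CPM scale, with log2 fold changes of 0.28 (SE 0.07) in MZ and 0.45 (SE 0.07) in wt embryos that turned to -0.14 in both on log2(TPM + 1). polr3f stood at 19.7, 23.9 and 28.0 CPM in MZ sphere and 20.2, 14.0 and 22.6 CPM in wt sphere libraries. With 4 to 8 cells the values were 65.8, 50.8 and 52.7 CPM in MZ and 73.3, 57.9 and 57.4 CPM in wt embryos. Like polr3b, it had every sphere library below every 4- to 8-cell library and log2 fold changes by stage of -1.20 (SE 0.19) in MZ and -1.67 (SE 0.20) in wt embryos. Between genotypes both genes overlapped at both stages, with log2 fold changes at the sphere stage of -0.15 (SE 0.09) for polr3e and 0.32 (SE 0.23) for polr3f.

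polr3g and its paralogues polr3gla and polr3glb encode alternative forms of 1 subunit, and the form made from POLR3G is known in mammals for its place in pluripotent cells. polr3g was read from few counts, namely 6, 11 and 7 in MZ sphere and 4, 0 and 1 in wt sphere libraries, and 25, 25 and 15 in MZ and 8, 15 and 12 in wt 4- to 8-cell libraries. The MZ libraries lay above the wt libraries at both stages once scaled, at 0.543 to 0.789 CPM against 0 to 0.245 CPM in sphere embryos, and at 0.914 to 1.42 CPM against 0.336 to 0.726 CPM in 4- to 8-cell embryos. The ratio of MZ to wt was 6.32 in sphere embryos (95% counting interval 2.37 to 21.2, from 24 and 5 counts). It was 2.19 in 4- to 8-cell embryos (1.43 to 3.41, from 65 and 35 counts). These intervals pool the libraries of a group and cover counting error only. They are no test of the gene, which was picked with its difference known. The gene was under the filter on low counts at the sphere stage and was not fitted there.

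The paralogue polr3gla, named here after its values were seen, was the most abundant form in sphere embryos. It stood at 189.9, 169.7 and 109 TPM in MZ sphere and 129, 194 and 123 TPM in wt sphere libraries, against 0.460, 1.33 and 0.540 TPM in MZ and 0.0600, 0.290 and 0.450 TPM in wt 4- to 8-cell libraries. Stages did not overlap and genotypes did at the sphere stage. The log2 fold change of sphere over 4- to 8-cell embryos was 8.09 (SE 0.45, adjusted p = 1.39e-07) in MZ and 9.78 (SE 0.50, adjusted p = 6.92e-08) in wt embryos by the edgeR quasi-likelihood test. polr3glb followed at a lower level, with 1.55 (SE 0.54, adjusted p = 0.0397, edgeR) in MZ and 3.43 (SE 0.56, adjusted p = 3.55e-04, edgeR) in wt embryos. polr3g thus made up 1.06 ± 0.186% of the 3 forms in MZ sphere and 0.169 ± 0.199% in wt sphere embryos, but 70.3 ± 3.72% in MZ and 70.7 ± 10.3% in wt 4- to 8-cell embryos, where polr3gla reached at most 1.33 TPM. With 4 to 8 cells polr3gla held 29 counts over the 3 MZ and 11 over the 3 wt libraries, and polr3glb 30 and 19. The shares at that stage and the stage differences of these paralogues therefore rest on few counts.

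**Figure D2:**
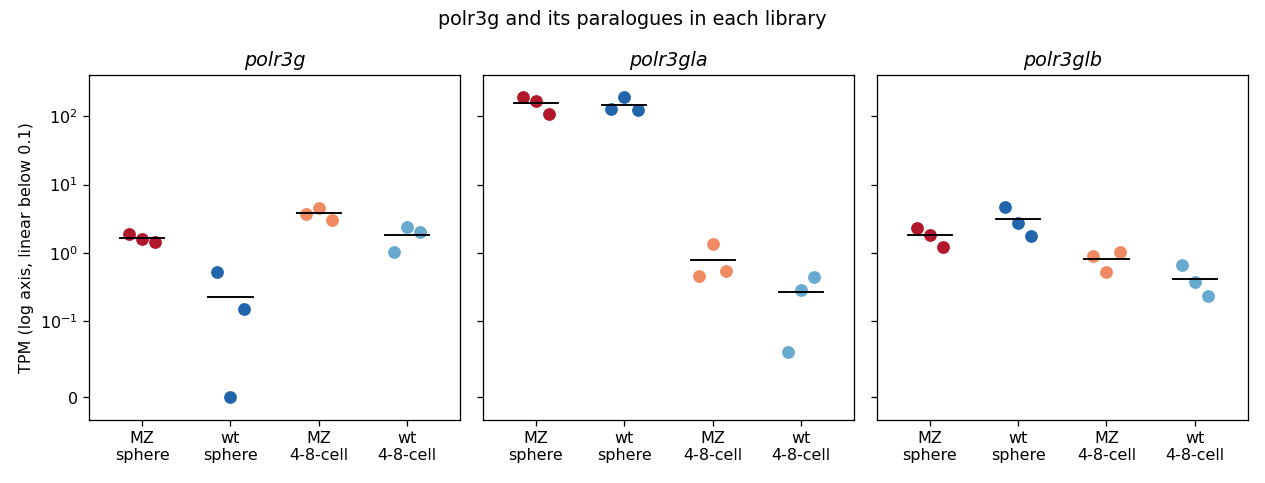
Levels of polr3g and its paralogues polr3gla and polr3glb in TPM on a log axis that is linear below 0.1. Points are libraries and lines are group means. polr3gla lay at 109 to 189.9 TPM in MZ sphere and 123 to 194 TPM in wt sphere libraries, and at 0.460 to 1.33 TPM in MZ and 0.0600 to 0.450 TPM in wt 4- to 8-cell libraries.

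Counted together, 2 of the 9 fitted genes passed an adjusted p of 0.05 between genotypes at the sphere stage, maf1b as lower and bdp1 as higher in MZ embryos. Over all 16314 genes fitted there, 7.78% passed, 3.71% as higher and 4.07% as lower. The libraries did not overlap for 4 of the 10 genes (maf1b, bdp1, brf1b and polr3g) and for 34.5% of all fitted genes. At the earlier stage 0 of 10 passed with edgeR, with DESeq2 and with limma on TPM. There 3.02% of 15937 genes passed, 1.33% as higher and 1.69% as lower. The log2 fold change of polr3g there was 1.11 (SE 0.44). Only polr3g did not overlap there, against 28.9% of all fitted genes. The interaction of genotype and stage passed for maf1b and bdp1, 2 of 10, against 1.97% of 16595 genes. Since the genes were picked with these contrasts known, nothing is read from their counts. Without MZ sphere replicate 2, MZ sphere replicate 3 or wt sphere replicate 1, 1 of the 9 genes passed at the sphere stage in place of 2, since bdp1 did not, while its log2 fold change stayed between 0.77 and 0.96 over the 6 libraries left out in turn.

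**Figure D3:**
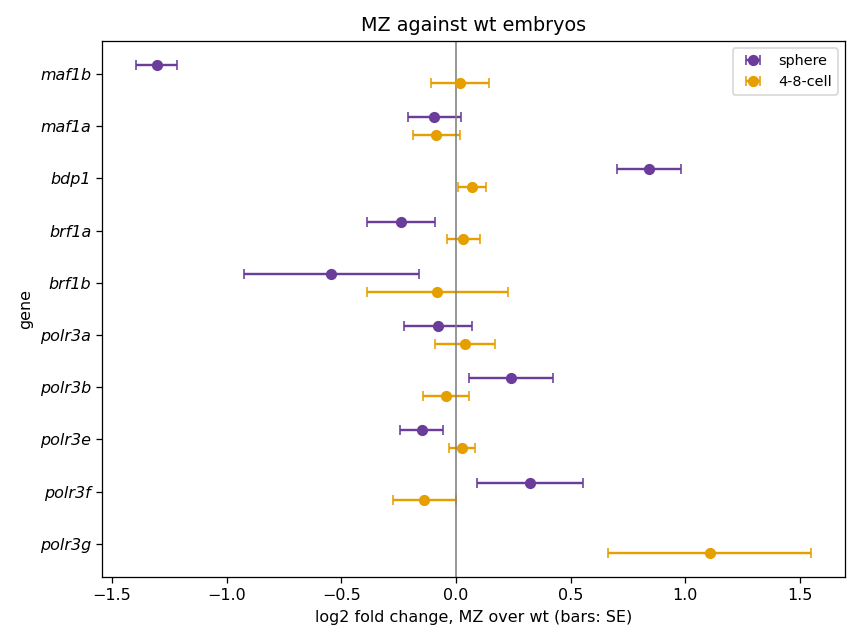
Log2 fold change of MZ over wt embryos for each gene at the sphere stage (upper point of each pair) and in 4- to 8-cell embryos (lower point), with bars of 1 SE. maf1b lay at -1.31 and bdp1 at 0.84 at the sphere stage and at 0.02 and 0.07 in 4- to 8-cell embryos, and polr3g was fitted in 4- to 8-cell embryos alone.

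By stage, 5 of 10 genes passed in MZ embryos, maf1a and polr3e as higher and maf1b, polr3b and polr3f as lower at the sphere stage. Of all 16595 genes, 39.5% passed in MZ embryos, 20.0% as higher and 19.6% as lower. In wt embryos 7 of 10 passed, maf1a, maf1b and polr3e as higher and bdp1, polr3b, polr3f and polr3g as lower, against 48.3% of all genes, 24.7% as higher and 23.6% as lower. Sphere and 4- to 8-cell libraries did not overlap for 10 of 10 genes in MZ and 7 of 10 in wt embryos, against 56.8% of all genes in MZ and 55.4% in wt embryos. These directions hold for TMM-scaled counts. On log2(TPM + 1), fitted with limma, the median over all genes shifted by -0.35 in MZ and -0.48 in wt embryos, and maf1a (-0.07 in MZ, -0.25 in wt) and polr3e (-0.14 in both) turned from positive to negative while staying above that median. On this scale 0 of the 10 genes passed as higher and 8 in MZ and 7 in wt embryos as lower. maf1b in wt embryos was at 0.24 and did not pass. Of all 16595 genes, 8636 passed in MZ and 9906 in wt embryos there, 21.7% and 18.2% of these as higher.

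**Figure D4:**
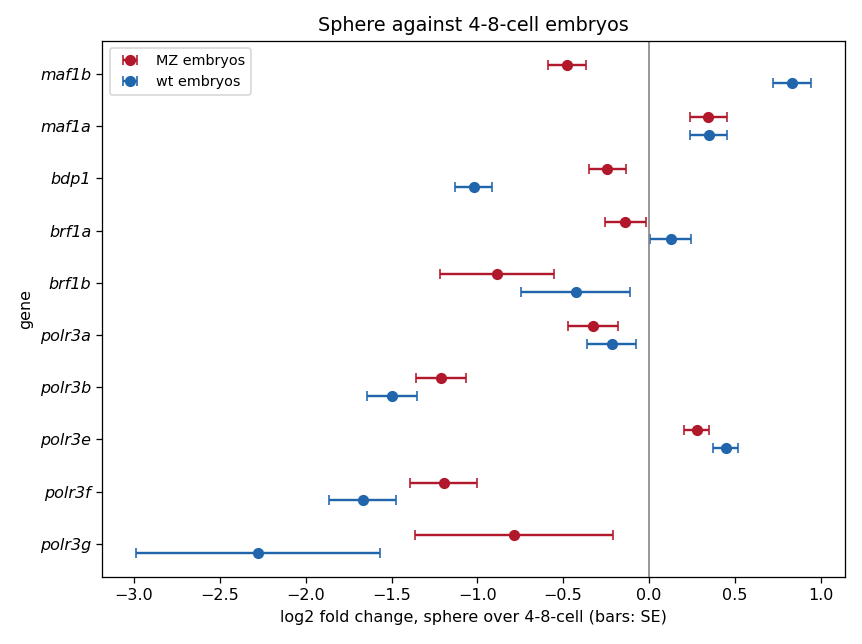
Log2 fold change of sphere over 4- to 8-cell embryos for each gene in MZ embryos (upper point of each pair) and wt embryos (lower point), on TMM-scaled counts with bars of 1 SE. maf1b lay at -0.48 in MZ and 0.84 in wt embryos, and the positive values of maf1a and polr3e turned negative on the TPM scale.

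Ordered by level per length, maf1b led in every group. In MZ sphere embryos it was followed by polr3e (106 ± 6.48 TPM) and bdp1 (74.0 ± 10.9 TPM), with no overlap between neighbours, and then by maf1a, polr3a, brf1a and polr3f at 23.0 to 30.3 TPM on average, each overlapping its neighbour. polr3b lay below these, and polr3g (1.65 TPM) and brf1b (0.490 TPM) closed the order without overlap. In wt sphere embryos polr3e (104 ± 7.89 TPM) again lay above bdp1 (37.3 ± 8.02 TPM), whose libraries overlapped those of maf1a. maf1a, brf1a, polr3a and polr3f lay at 16.6 to 29.1 TPM on average, each overlapping its neighbour, with polr3b below them and brf1b (0.653 TPM) and polr3g (0.223 TPM) overlapping at the end. MZ 4- to 8-cell embryos held bdp1 and polr3e at 117 TPM each, which overlapped, then polr3f (70.3 TPM) and polr3a. brf1a, polr3b and maf1a overlapped their neighbours below polr3a, and polr3g (3.79 TPM) lay above brf1b (1.21 TPM). wt 4- to 8-cell embryos had the same order but for polr3b above brf1a, with bdp1 (114 ± 9.22 TPM) and polr3e (114.3 ± 0.796 TPM) overlapping, polr3f at 79.2 ± 7.63 TPM, and polr3a, polr3b, brf1a and maf1a overlapping at 34.6 to 45.2 TPM. polr3g (1.81 ± 0.702 TPM) and brf1b (1.32 ± 0.307 TPM) overlapped there (SD, n = 3 each).

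Over the 12 libraries, the genes whose log2 CPM tracked maf1b most closely were ARFGEF2 (Pearson r = 0.94), RAB10 (0.935) and ITGA10 (0.93), and those closest to polr3g were atp5if1a (0.95), ARHGEF17 (0.94) and DCAF10 (0.94), out of 16595 genes compared. RAB10, a small GTPase of membrane traffic, was, like maf1b, lowest in MZ sphere and highest in wt sphere embryos, with 48.2 CPM in MZ sphere, 114 CPM in wt sphere, 58.7 CPM in MZ 4- to 8-cell and 67.5 CPM in wt 4- to 8-cell embryos on average. These libraries fall into 4 groups, so that the correlations describe group levels and are given with no test.

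The remaining subunits of the enzyme, the 15 genes found of a list of other Pol III subunits including those shared with Pol I and Pol II, held no call by edgeR at the sphere stage. Of the 15, 0 passed between genotypes by edgeR, against 7.78% of all genes, and 3 had an unadjusted p under 0.05. The share of all genes with such an unadjusted p was not computed, here or for the lists below. DESeq2 and limma on TPM each called 1 as higher. Their median log2 fold change was 0.12, against -0.0026 over all genes. At the earlier stage 1 of 13 fitted passed, against 3.02% of all genes. This was POLR2F, a subunit shared by the nuclear polymerases and written in capitals as in the name table. It stood at 25.2, 19.5 and 23.0 CPM in MZ and 40.3, 47.2 and 51.8 CPM in wt 4- to 8-cell libraries, a log2 fold change of -1.02 (SE 0.15, adjusted p = 0.0254, edgeR), with no overlap. By stage, where 39.5% of all genes passed in MZ and 48.3% in wt embryos, 2 rose and 4 fell of 15 in MZ embryos, and 2 rose and 6 fell of 15 in wt embryos, the risers being polr3gla and polr3glb in both. On log2(TPM + 1) with limma, 1 rose and 8 fell in MZ and 2 rose and 10 fell in wt embryos. Of all 16595 genes, 8636 passed in MZ and 9906 in wt embryos on that scale.

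Genes of Pol III transcription factors had mostly positive log2 fold changes of MZ over wt at the sphere stage, and none passed by edgeR. Of 19 genes, covering TBP and its relative, brf2, TFIIIA, TFIIIC and the SNAPC complex that serves U6 and 7SK promoters, 18 were positive, against 49.8% of all genes, with a median of 0.34. Positive values were also found for 11 of 15 other Pol III subunits, 15 of 21 regulators and 17 of 33 processing genes. Of 11 genes of Pol I, 7 were positive, with a median of 0.20, and of 7 genes of Pol II 3 were. By edgeR 0 of the 19 Pol III factor genes passed, against 7.78% of all genes. An unadjusted p under 0.05 was found for 8, a count with no share of all genes to set it against. DESeq2 called 2 and limma on TPM 1, all as higher. Genes that lay above wt in every MZ sphere library included TBP (log2 fold change 0.34, SE 0.11, adjusted p = 0.0931, edgeR), GTF3C3 of TFIIIC (0.69, SE 0.23, adjusted p = 0.103, edgeR) and snapc2 (0.66, SE 0.20, adjusted p = 0.0807, edgeR), named after their values were seen. Such a lack of overlap, in either direction, was found for 34.5% of all fitted genes at that stage. At the earlier stage 8 of 19 were positive, with a median of -0.06. None passed by edgeR or limma, against 3.02% of all genes by edgeR. There, 5 had an unadjusted p under 0.05, and 3 were called by DESeq2. Between stages, 8 of the 19 fell and 4 rose at the sphere stage in MZ embryos (median -0.38), and 14 fell and 2 rose in wt embryos (median -0.81). Of all genes 19.6% fell and 20.0% rose in MZ embryos, and 23.6% fell and 24.7% rose in wt embryos. On log2(TPM + 1) with limma, 0 rose, and 13 fell in MZ and 16 in wt embryos. There 8636 of all 16595 genes passed in MZ and 9906 in wt embryos. GTF3C3 fell by 1.68 in MZ (SE 0.17, adjusted p = 1.76e-05, edgeR) and by 2.09 in wt embryos (SE 0.17, adjusted p = 2.36e-06, edgeR) on the log2 scale. Summed per length, the list held 1004 to 1282 TPM in MZ sphere and 663 to 927 TPM in wt sphere libraries, and 1485 to 1666 TPM in MZ and 1611 to 1736 TPM in wt 4- to 8-cell libraries. The most abundant genes in the sphere sums were GTF3A (ENSDARG00000071583) and TBP. GTF3A averaged 341 TPM in MZ and 211 TPM in wt sphere embryos, and TBP 293 and 209 TPM. On log2(TPM + 1) the median over all genes at the sphere stage was also above 0, at 0.13. The difference between the stages in the genotype effect passed for 0 of 19 by edgeR, against 1.97% of all genes. An unadjusted p under 0.05 was found for 6, and 3 passed by DESeq2 and 2 by limma.

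The 21 regulators of MAF1 and Pol III include the TOR kinase complex and the protein phosphatases that act on MAF1. They also include casein kinase CK2, 1 gene of the MYC family and the repressor RB1. Of the 21, 1 passed between genotypes at the sphere stage, against 7.78% of all genes. RB1, the retinoblastoma tumour suppressor that restrains Pol III in mammals, stood at 131, 118 and 112 CPM in MZ sphere and 173, 179.9 and 153 CPM in wt sphere libraries, a log2 fold change of -0.50 (SE 0.11, adjusted p = 0.0412, edgeR). It did not pass without a scaling factor or on the TPM scale, and passed in 2 of the 6 fits that left out 1 library. In 4- to 8-cell embryos 0 of 21 passed by edgeR, against 3.02% of all genes. An unadjusted p under 0.05 was found for 5, and DESeq2 and limma on TPM each called 1. csnk2a2b, a catalytic subunit of CK2, differed between the stages in its genotype effect by 0.70 (SE 0.15, adjusted p = 0.0468, edgeR), a call kept in 2 of the 12 fits that left out 1 library and lost without the filter and with the replicate block. It stood at 52.6, 54.5 and 54.6 CPM in MZ sphere and 33.3, 39.2 and 41.2 CPM in wt sphere libraries, which did not overlap. With 4 to 8 cells it stood at 62.9, 62.1 and 57.0 CPM in MZ and 69.7, 78.0 and 62.4 CPM in wt libraries, which did. By stage 9 of the 21 regulators rose and 4 fell in MZ embryos (39.5% of all genes passed), and 8 rose and 5 fell in wt embryos (48.3% of all genes), against 4 and 8 in MZ and 2 and 9 in wt embryos on log2(TPM + 1) with limma. On that scale 8636 of all 16595 genes passed in MZ and 9906 in wt embryos, 21.7% and 18.2% of these as higher.

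Of 33 genes that process Pol III transcripts, 2 rose and 2 fell in MZ sphere embryos by edgeR, 2 rose and 7 fell by DESeq2, and 2 rose and 1 fell by limma on log2(TPM + 1). Of all genes 7.78% passed by edgeR. RPP40, a protein of the ribonucleases P and MRP that trim transfer RNA and ribosomal RNA, stood at 29.7, 28.2 and 29.3 CPM in MZ sphere and 14.6, 12.8 and 17.6 CPM in wt sphere libraries (log2 fold change 0.94, SE 0.18, adjusted p = 0.0257, edgeR). Its genotype effect differed between the stages by 1.00 (SE 0.19, adjusted p = 0.0299, edgeR), a call kept in 3 of the 12 fits that left out 1 library. LSM4, of the ring that holds the end of U6 RNA, stood at 70.3, 80.2 and 88.4 CPM in MZ sphere and 43.7, 46.8 and 52.4 CPM in wt sphere libraries (0.73, SE 0.13, adjusted p = 0.0200, edgeR).

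Lower in MZ sphere embryos were 1 of the 2 genes named MEPCE, the methyltransferase that caps 7SK RNA, and CLP1, an RNA kinase of the complex that splices transfer RNA. MEPCE (ENSDARG00000035771) stood at 213, 188 and 170.2 CPM in MZ sphere and 361, 379 and 378 CPM in wt sphere libraries (log2 fold change -0.98, SE 0.11, adjusted p = 0.00670, edgeR). The other copy overlapped between genotypes at that stage (-0.04, SE 0.14). In 4- to 8-cell libraries MEPCE (ENSDARG00000035771) was also lower in MZ, at 180 to 211 CPM against 231 to 323 CPM in wt. The other copy lay at 444 to 557 CPM in MZ and 567 to 604 CPM in wt libraries there. Neither copy overlapped at the earlier stage, as was so for 28.9% of all fitted genes, and neither passed by edgeR. CLP1 stood at 40.3, 51.6 and 48.2 CPM in MZ sphere and 84.9, 71.5 and 66.7 CPM in wt sphere libraries (-0.68, SE 0.14, adjusted p = 0.0335, edgeR). In 4- to 8-cell embryos 1 of 33 passed, against 3.02% of all genes. This was ELAC2, the ribonuclease Z that cuts the 3′ trailer of transfer RNA. It stood at 272, 271 and 262 CPM in MZ and 229, 231 and 221 CPM in wt libraries. The log2 fold change was 0.26 (SE 0.05, adjusted p = 0.0435, edgeR). By stage 6 of the 33 rose and 5 fell in MZ embryos (39.5% of all genes passed), and 8 rose and 10 fell in wt embryos (48.3% of all genes), against 0 risers on log2(TPM + 1) with limma, where 20 fell in MZ and 19 in wt embryos. On that scale 8636 of all 16595 genes passed in MZ and 9906 in wt embryos, 21.7% and 18.2% of these as higher.

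Over the 4 lists of 88 genes together, 5 passed at the sphere stage (5.68%), against 7.78% of all genes, and 2 of 86 fitted in 4- to 8-cell embryos (2.33%), against 3.02%. The sphere count was 0 without MZ sphere replicate 2, 1 without MZ sphere replicate 3 and 1 without wt sphere replicate 1, and 4 without the shallow MZ sphere replicate 1. The 4- to 8-cell count was 0 without MZ replicate 2, MZ replicate 3 or wt replicate 3 of that stage, and 1 without replicate 1 of either genotype. Of the 6 fits that left out 1 sphere library, MEPCE (ENSDARG00000035771) passed in 5, RPP40 and LSM4 in 3 each and CLP1 in 2. CLP1 also did not pass on either TPM scale or with the replicate block. Of the 6 fits at the earlier stage, POLR2F passed in 1 and ELAC2 in 0. Neither passed with the replicate block, and ELAC2 did not pass without the filter, on either TPM scale or in the fit to all 12 libraries.

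Transcripts of Pol III itself carry no poly-A tail as a rule, so their reads in these libraries are no measure of Pol III output. Of the 48 such genes found, 44 were listed at 0 in every library, and rn7sk, rn7sl1, rmrp and rpph1 were fitted. By edgeR all 4 were higher in sphere than in 4- to 8-cell embryos of both genotypes, whereas limma on log2(TPM + 1) called 2 of the 4 in MZ and 4 in wt embryos. By edgeR 20.0% of all genes were higher in MZ and 24.7% in wt embryos. The log2 fold change of rn7sk by stage was 4.04 (SE 0.26, adjusted p = 4.23e-07, edgeR) in MZ and 5.01 (SE 0.27, adjusted p = 8.62e-08, edgeR) in wt embryos. Between genotypes at the sphere stage rn7sl1, the RNA of the signal recognition particle, stood at 826, 868 and 703 CPM in MZ and 1885, 1776 and 1280 CPM in wt libraries (-1.06, SE 0.16, adjusted p = 0.0142, edgeR), and the other 3 overlapped, with log2 fold changes of -0.40 to -0.13. The rn7sl1 call was lost without MZ sphere replicate 2 or 3 and on the log2(TPM + 1) scale. In 4- to 8-cell embryos 0 of the 4 passed between genotypes by edgeR, against 3.02% of all genes, and DESeq2 called 1 as higher. There rn7sk lay at 32.3 to 45.3 CPM in MZ and 17.1 to 28.1 CPM in wt libraries. These did not overlap, as was so for 28.9% of all fitted genes.

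The other nuclear polymerases were set beside these genes with 11 genes of Pol I and 7 of Pol II. At the sphere stage 1 of 11 Pol I and 2 of 7 Pol II genes passed by edgeR, against 7.78% of all genes. DESeq2 called 4 Pol I genes, all as higher, and 3 Pol II genes, 2 as higher and 1 as lower. Of the Pol I genes 7 had a positive log2 fold change of MZ over wt (median 0.20). Of the Pol II genes 3 did (median -0.26). POLR1A, the largest subunit of Pol I, stood at 163, 228 and 251 CPM in MZ sphere and 138, 118 and 125 CPM in wt sphere libraries (log2 fold change 0.74, SE 0.16, adjusted p = 0.0364, edgeR). polr2m stood at 29.4, 42.8 and 51.7 CPM in MZ sphere and 9.48, 9.08 and 12.9 CPM in wt sphere libraries (1.97, SE 0.25, adjusted p = 0.00898, edgeR). POLR2B, the second largest subunit of Pol II, stood at 164, 194 and 171 CPM in MZ sphere and 278, 246 and 225 CPM in wt sphere libraries (-0.51, SE 0.12, adjusted p = 0.0417, edgeR). Each of these 3 calls was lost when 1 library was left out, MZ sphere replicate 2 in each case, and those of POLR1A and POLR2B also without other libraries and with the replicate block. POLR2B did not pass without a scaling factor or on either TPM scale, and POLR1A did not on log2(TPM + 0.1). In 4- to 8-cell embryos 0 of 11 Pol I and 0 of 7 Pol II genes passed by edgeR, against 3.02% of all genes. An unadjusted p under 0.05 was found for 1 Pol I and 3 Pol II genes. DESeq2 called 0 of 11 and 2 of 7 at that stage. There polr2m lay at 33.5 to 56.3 CPM in MZ and 23.8 to 31.7 CPM in wt libraries. POLR2B lay at 119 to 133 CPM in MZ and 139.7 to 162 CPM in wt libraries. These genes thus differed without overlap in the same direction as at the sphere stage, whereas POLR1A overlapped. Of all fitted genes 28.9% did not overlap there. The interaction of genotype and stage passed for 0 of 7 Pol II genes by edgeR, against 1.97% of all genes.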

How the data were processed

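Expected counts and TPM per gene were deposited for 12 libraries. The authors aligned paired reads of poly-A RNA to danRer10 with Bowtie and RSEM (versions not given in the sources used here) on an Ensembl annotation, and RSEM shares reads among genes by probability, so that expected counts need not be whole. TPM was computed by the authors from these expected counts and effective lengths, and the deposited mean transcript lengths were read for the 10 genes. Symbols were matched for 25752 of 31462 identifiers. Expected counts were rounded, 1 ribosomal RNA gene was removed, and genes with a mean TMM-normalised count above 10 were fitted with edgeR 4.0.16 in R 4.3.3 (quasi-likelihood test, no block), each stage by itself for genotype and all 12 libraries for stage and interaction. SEs are those implied by the F statistic. Levels in CPM are scaled over the 12 libraries. Calls are at a Benjamini-Hochberg adjusted p under 0.05 over all genes fitted. Shares of all genes are those of edgeR unless another scale is named. None was computed for DESeq2 or for an unadjusted p under 0.05. The methods call the 3 libraries of a group biological samples, and whether these were separate clutches is not given in the sources used here. The 10 genes and all gene lists were chosen with earlier results of these data known. Named from the lists were genes called between genotypes, at most 4 per list and direction, with TBP, GTF3A, GTF3C3, snapc2, polr3gla, polr3glb and rn7sk added after their values were seen. Alternatives were other or no size factors, no filter, DESeq2 1.42.0, limma 3.58.1 on log2(TPM + 1) and log2(TPM + 0.1), a replicate block, 1 fit to all 12 libraries, and leaving out each library. The code was tested on simulated counts.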

Additional observations from a re-analysis of the deposited data

Results flagged for a closer look

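The interaction term of the fit to all 12 libraries passed for 2 of the 10 genes and 2 of the 88 pathway genes. It passed for 0 of 11 Pol I genes, 0 of 7 Pol II genes and 0 of 4 fitted Pol III transcripts. Of all 16595 genes, 1.97% passed. The interaction was -1.32 (SE 0.16) for maf1b and 0.78 (SE 0.15) for bdp1, which are descriptions because these genes were picked with the contrast known. It was 0.70 (SE 0.15, adjusted p = 0.0468, edgeR) for csnk2a2b and 1.00 (SE 0.19, adjusted p = 0.0299, edgeR) for RPP40. Over the 12 fits that left out 1 library, the interaction ran from -1.39 to -1.17 for maf1b and from 0.71 to 0.90 for bdp1. The bdp1 value passed in 4 of them. These fits reuse the libraries in which both genes were picked, so they give no support of their own. The call was kept in 3 of the fits for RPP40 and 2 for csnk2a2b. The csnk2a2b call was also lost without the filter and with the replicate block.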

How the results depend on the processing

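The log2 fold change of maf1b at the sphere stage was -1.31, against -1.21 without a scaling factor and -0.94 on log2(TPM + 1). The stage directions of maf1a and polr3e were reversed by TPM, in MZ embryos to -0.071 and -0.073 (maf1a, pseudocounts 1 and 0.1) and -0.14 (polr3e, both), and in wt embryos to -0.25 (maf1a) and -0.14 (polr3e), where the median of all genes also shifted. Of all 16595 genes, 6560 passed by stage in MZ embryos with edgeR and 8636 on log2(TPM + 1). Of the 10 genes, 5 passed by stage in MZ embryos, 3 without the filter, 8 on log2(TPM + 1) and 4 to 6 without 1 library. The 2 genes that passed at the sphere stage became 1 to 2 without 1 library, as did the 2 of the interaction. Of the pathway genes, the 5 at the sphere stage became 15 with DESeq2, 19 in a fit to all 12 libraries and 0 to 6 without 1 library. The 2 in 4- to 8-cell embryos became 1 without the filter, 7 with DESeq2 and 0 to 2 without 1 library. The 2 of the interaction became 1 without the filter, 11 with DESeq2, 6 on log2(TPM + 1), 5 on log2(TPM + 0.1) and 0 to 7 without 1 library. The number of all genes that passed was not counted for DESeq2, no filter, the fit to all 12 libraries or fits without 1 library. These changes are therefore not read as a trait of the pathway genes. Their cause was not tested.

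Deviations of same-numbered MZ and wt libraries correlated at 0.03, -0.004 and 0.27 in sphere embryos. In 4- to 8-cell embryos the correlations were 0.07, 0.04 and 0.03. Libraries with different numbers were not compared, so whether replicate numbers pair the libraries was not tested. With the replicate block, 0 pathway genes passed in 4- to 8-cell embryos and 1 in the interaction. The counts of the 10 genes were then 2 in sphere and 0 in 4- to 8-cell embryos between genotypes. By stage they were 5 in MZ and 7 in wt embryos, and 2 passed in the interaction. How many of all genes passed with the block was not counted, so nothing is read from these counts.

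Higher genes made up 47.7% of all calls at the sphere stage, 62.5% without a scaling factor and 67.9% on log2(TPM + 1). By stage the share was 50.5% in MZ and 51.2% in wt embryos, 38.2% in wt without a scaling factor, and 21.7% and 18.2% on log2(TPM + 1). It was 55.7% in the interaction, 70.3% without a scaling factor and 72.5% on log2(TPM + 1). Among the 10 genes depth limits polr3g and brf1b most, whose groups held as few as 5 and 41 counts.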
